A study of Caenorhabditis elegans with 2 samples.

Results

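lin-28, lin-14, hbl-1, lin-41, lin-42, lin-46, ain-1, ain-2, alg-1 and alg-2 are genes of developmental timing and of the microRNA machinery in the nematode Caenorhabditis elegans. They were taken by name as 10 of the 19973 protein-coding genes on the nuclear chromosomes and located in the Ensembl release 115 annotation of WBcel235 (ce11). All 10 were found. Every ChIP-seq summit in each gene or within 5000 bp of either end was then collected. The rule takes genes by name, but the names were chosen with earlier results of these data known, which limits every share of the 10 genes given below. The data are ChIP-seq regions of LIN-39, a Hox transcription factor known for patterning the mid-body, from whole animals of strain OP18 at the first larval stage (L1). They carried the unc-119(ed3) mutation and wgIs18, an integrated transgene with eGFP-tagged lin-39, and were pooled males and females. There was 1 group of 2 biological replicates and no second condition, so values are compared between genes and between replicates. The labels name lin-39 as the antibody and an eGFP fusion as the target, and they list no lesion in the endogenous lin-39 gene. Chromatin came from all tissues at once, so the cell type that gave a peak cannot be read from these lists.

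The heterochronic pathway sets which larval stage a cell behaves as. LIN-14, LIN-28 and HBL-1 promote early fates and are turned down as the microRNA lin-4 and the let-7 family appear, while LIN-41, LIN-42 and LIN-46 act later or in opposition to the early factors. The microRNAs work through the Argonautes ALG-1 and ALG-2, which recruit AIN-1 and AIN-2 to repress target messages. Several of these genes are known for timing the divisions of the vulval precursor cells, a lineage that also needs lin-39.

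Sequences are shown for the strongest region of ain-1 and of lin-14, for the next strongest region of ain-1, and for a weak region beside hbl-1 as a contrast. Each is the RefSeq WBcel235 genome plus strand, read 5′ to 3′ over 100 bp to either side of the pooled summit. Capitals mark matches, on either strand, to TGATNNAT (the composite site of Hox proteins with their PBC partners), TAATTA (the homeodomain core) or GAGAG. The last was added after the sequences had been seen. Overlapping matches run together as 1 block of capitals. The ain-1 peak window is chrX:16612435-16612635, the upstream neighbour is chrX:16611454-16611654, the lin-14 window is chrX:11474665-11474865 and the hbl-1 window is chrX:5828584-5828784.
ain-1 peak: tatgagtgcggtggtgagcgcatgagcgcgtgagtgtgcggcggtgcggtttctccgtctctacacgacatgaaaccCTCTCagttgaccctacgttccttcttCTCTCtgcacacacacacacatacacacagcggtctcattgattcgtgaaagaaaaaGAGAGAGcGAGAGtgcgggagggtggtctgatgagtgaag
ain-1 neighbour: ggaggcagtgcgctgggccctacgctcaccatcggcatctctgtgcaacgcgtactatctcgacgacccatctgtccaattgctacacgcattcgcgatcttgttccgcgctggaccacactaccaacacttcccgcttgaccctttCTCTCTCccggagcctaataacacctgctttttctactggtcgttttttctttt
lin-14 intron: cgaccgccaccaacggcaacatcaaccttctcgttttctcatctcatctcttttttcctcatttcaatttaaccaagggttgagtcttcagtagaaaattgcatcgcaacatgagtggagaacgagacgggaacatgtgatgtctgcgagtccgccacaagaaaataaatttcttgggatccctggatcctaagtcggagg
hbl-1 flank: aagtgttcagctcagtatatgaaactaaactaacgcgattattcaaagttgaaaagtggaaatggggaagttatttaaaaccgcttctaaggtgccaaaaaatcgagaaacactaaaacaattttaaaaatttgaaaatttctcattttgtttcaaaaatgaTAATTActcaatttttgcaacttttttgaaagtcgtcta

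The ain-1 peak window held 5 matches to GAGAG and none to either homeodomain sequence, and its closest GAGAG lay 4 bp after the summit. The neighbour held 2 overlapping matches to GAGAG, the closest 47 bp after its summit. The lin-14 window held no match to any of the 3 sequences. The hbl-1 window held 1 match to TAATTA, 62 bp after the summit. In base composition the ain-1 windows stood out among these 4, at 53.7% GC each, against 45.8% at lin-14 and 28.4% at hbl-1. The hbl-1 window does not stand for weak regions in general. At the other genes without an optimal peak, the strongest region had from 31.3% GC (lin-46) to 45.8% (lin-14 and lin-42). Over all optimal peaks the median was 40.3% GC, and 4.50% of them reached the ain-1 value. A match is a description of letters in the window and not a site of binding.

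Regions came as ranked lists with the submitters' signal value for each region. Replicate 1, replicate 2 and both replicates together (pooled) each had 30000 regions, and a shorter set of reproducible regions, called optimal, was given for both together. The submitters title the pooled list peaks and background as input for IDR (irreproducible discovery rate), and the optimal set IDR thresholded. A low-ranked region described below may therefore be background and not a site of LIN-39 binding. The optimal set equalled the top of the pooled list by signal, from 607.5 down to 50.03, with a median of 81.3. For each replicate the same number of regions was taken from the top of its list, and these are called its strongest regions. Signal scales differ between lists, so replicates are set side by side by rank within their list, where 1 is the strongest. The lists give no read numbers. Depth is therefore unknown, and no interval for counting error can be given. The tagged gene itself, lin-39, had 0 summits within the same window in all 4 lists.

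An optimal peak lay in or near 3 of the 10 genes, lin-28, lin-41 and ain-1. Under the same rule 19.4% of all protein-coding genes had one (3875 of 19973), so a share of 3 in 10 is near the background and is not a result about these genes. In the narrower window of 2000 bp upstream to 500 bp downstream of an annotated transcript start, 2 of the 10 genes had an optimal peak, lin-28 and ain-1, against 8.76% of all genes. With 10 genes, a single gene moves the share by 10 percentage points. The peaks numbered 5 in all, 2 at lin-28, 2 at lin-41 and 1 at ain-1.

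**Figure D1:**
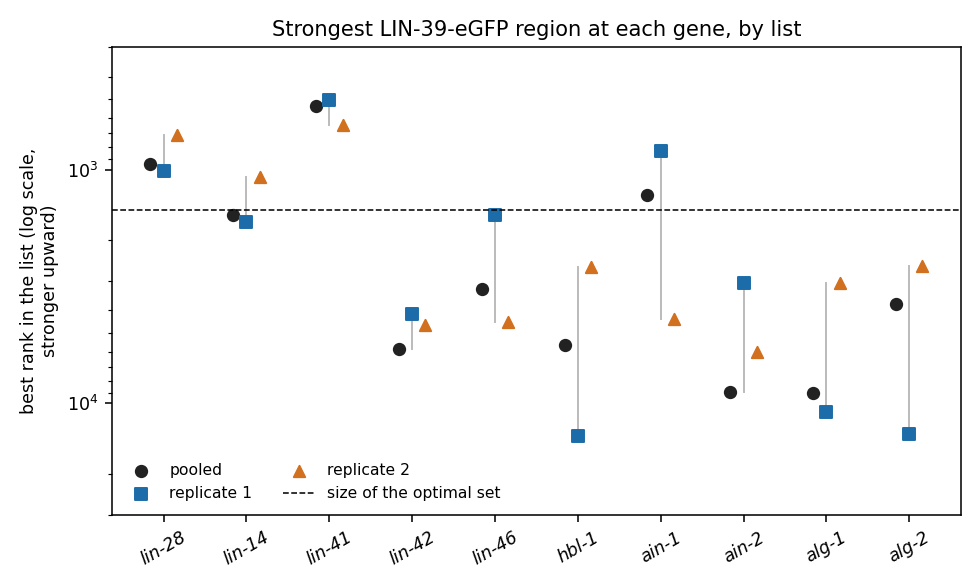
Best rank reached by any region in or within 5 kb of each gene, in the pooled list and in each replicate, on a log axis with stronger ranks at the top; grey lines join the 3 values of a gene and the dashed line marks the size of the optimal set. lin-41 and lin-28 lie above the line in all 3 lists, ain-1 in the pooled list and replicate 1, lin-14 in replicate 2, and the other 6 genes in none.

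lin-28 encodes an RNA-binding protein that blocks the maturation of let-7 and holds cells in early programs. Its gene lies at chrI:8407630-8410804 on the minus strand, with annotated transcript starts 884 bp apart. The strongest peak, chrI:8409704-8410043, had its summit in the annotated 5′ UTR, 46 bp downstream of the inner start. It had a pooled signal of 68.9 at rank 943, with a signal of 34.5 at rank 1372 in replicate 1 and of 35.2 at rank 713 in replicate 2. Both replicates thus placed this peak among their strongest regions. The larger rank was 1.92 times the smaller, and 39.9% of optimal peaks found in both replicates had a gap at least as wide.

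The other lin-28 peak, chrI:8411184-8411523, lay 1480 bp away in intergenic sequence, 550 bp upstream of the outer lin-28 start and 1068 bp upstream of the divergent gene F02E9.7. Its pooled signal was 51.4 at rank 1427, close to the end of the optimal set. In replicate 1 it had a signal of 41.3 at rank 1016, and in replicate 2 a signal of 12.01 at rank 7346. Replicate 1 therefore ranked the upstream peak above the peak inside the gene, and replicate 2 ranked them in the opposite order. The rank ratio of the upstream peak was 7.23, a gap that 5.20% of optimal peaks reached. Its replicate 2 summit lay 64 bp from the pooled one, against a median shift of 17 bp over all optimal peaks.

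Another lin-28 region, with its summit in the 3′ UTR at chrI:8407976, fell outside the optimal set at pooled rank 2523 with a signal of 37.2. Replicate 1 gave the overlapping region rank 1120 and replicate 2 gave it rank 2168, with the replicate 2 summit 300 bp away. Of the 10 genes, lin-28 had the most regions per 10 kb of window in the pooled list, 7.59, with 10 summits in the pooled list, 9 in replicate 1 and 8 in replicate 2. By this measure lin-46 led in replicate 1, with 8.42 against 6.83 for lin-28. In replicate 2 ain-1 led, with 7.45 against 6.07 for lin-28. Among its strongest regions replicate 1 held 3 of lin-28 and replicate 2 held 1.

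**Figure D2:**
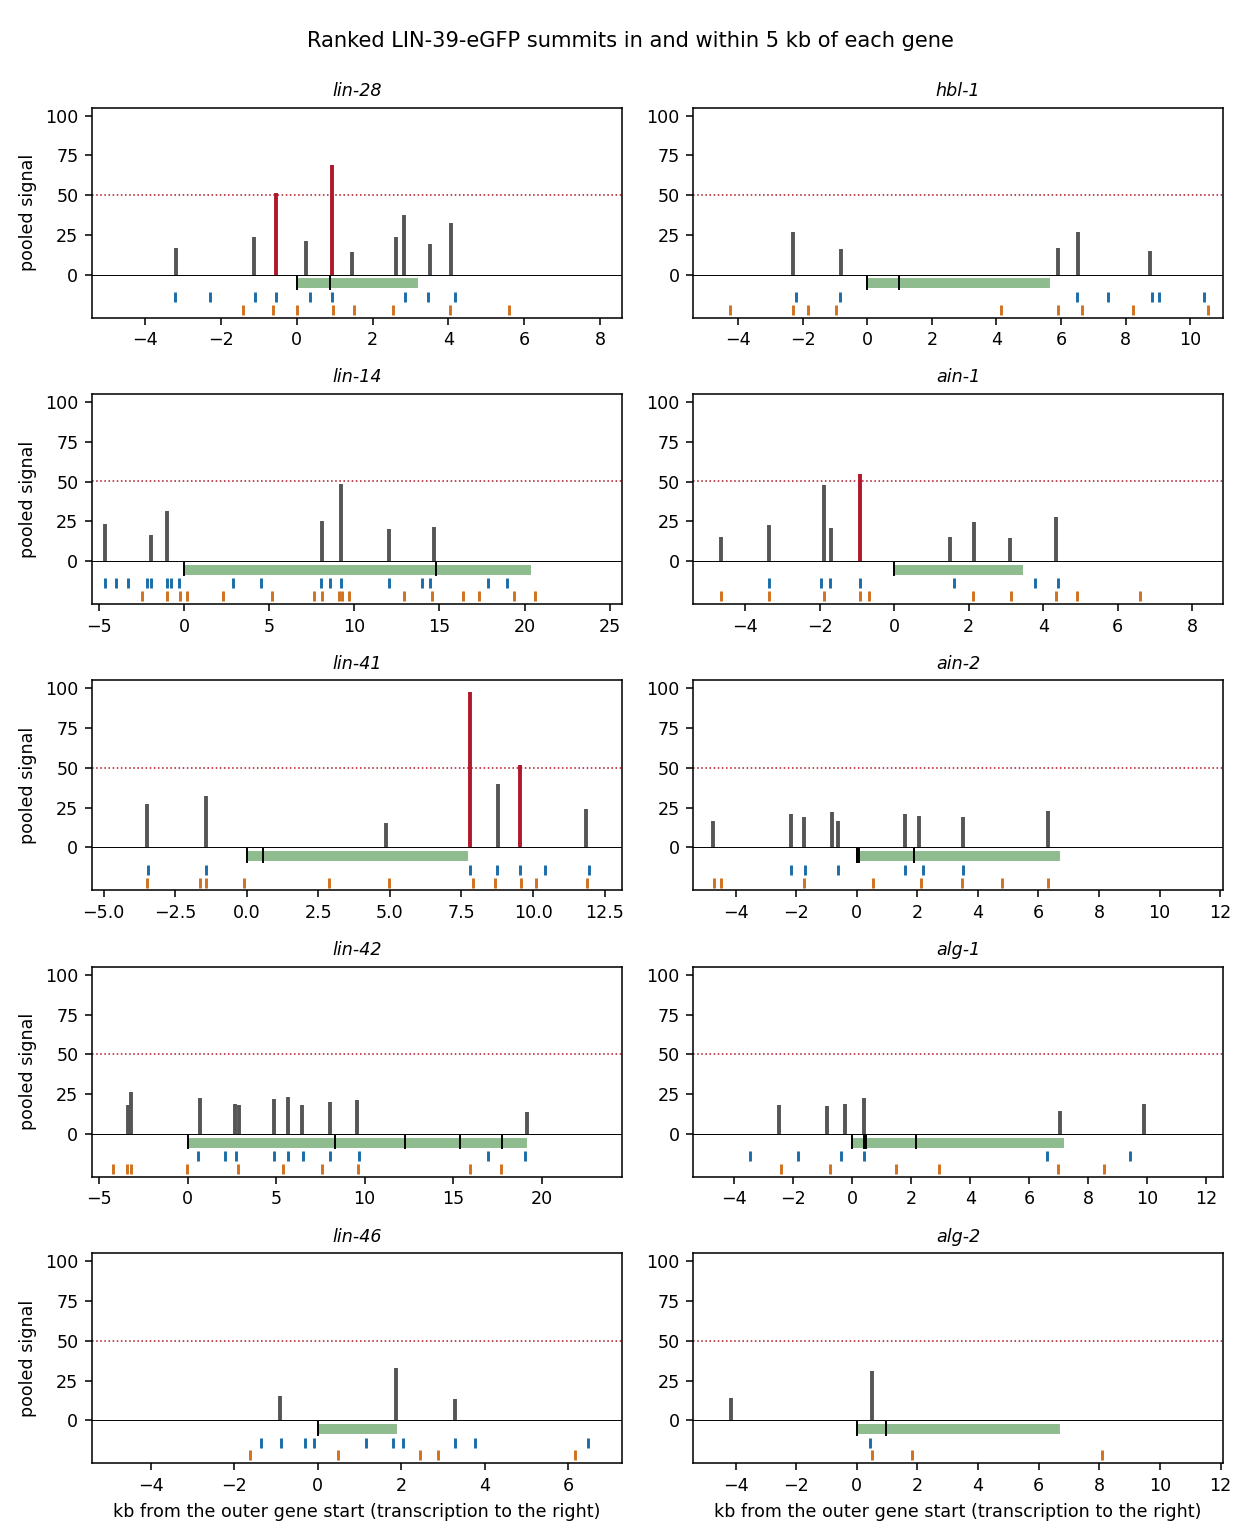
Pooled signal of every pooled summit (vertical lines, red where the region is in the optimal set) against the distance in kb from the outer start of each gene, drawn in the direction of transcription; green bars are the genes, black ticks their annotated starts, and the lower rows of ticks the summits of replicate 1 (blue) and replicate 2 (orange). The dotted line is the lowest optimal signal, 50.03, which is passed at lin-28 (2 summits), lin-41 (2 summits past the gene end) and ain-1 (1 summit upstream).

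lin-14 encodes a nuclear protein that directs the earliest larval fates and is the best known target of lin-4. It lies at chrX:11465560-11485871 with starts 14801 bp apart. Its strongest region, chrX:11474595-11474934, had its summit in the intron between these starts, 9205 bp downstream of the outer one and 5596 bp upstream of the inner one. The pooled signal was 48.7 at rank 1559, just below the lowest optimal signal of 50.03, with a signal of 30.9 at rank 1681 in replicate 1 and of 28.2 at rank 1073 in replicate 2. In replicate 2 it ranked ahead of 3 of the 5 optimal peaks of these genes, while in replicate 1 it ranked behind all 5. It was among the 122 pooled regions that held the highest −log10 q of the list, 3.51, without being optimal. lin-14 was the only protein-coding gene within 5000 bp of this summit, and the nearest optimal summit lay 50230 bp from the gene.

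In the pooled list the region nearest to the outer lin-14 start was weak, and each replicate had other regions nearer to that start. Its summit lay 990 bp upstream at pooled rank 3699, with rank 4094 in replicate 1 and rank 18718 in replicate 2. The long gene gave 7 summits in the pooled list but 18 in replicate 1 and 17 in replicate 2. Only 4 of the 7 pooled regions overlapped a region in both replicates.

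hbl-1, at chrX:5822142-5827755, encodes a hunchback-like zinc finger protein of early fates. Its strongest pooled regions were nearly equal and lay on opposite sides of the gene. The region 929 bp past the gene end, whose sequence is given above, had a signal of 26.96 at rank 5649, with rank 13848 in replicate 1 and rank 8977 in replicate 2. The region 2311 bp upstream had a signal of 26.9 at rank 5685, with rank 17982 in replicate 1 and rank 2616 in replicate 2. Neither was among the strongest of either replicate, and the upstream region was placed far apart by them. The start nearest to the region past the gene end was that of acp-5, at 751 bp. An optimal summit at rank 1396 lay 9406 bp past the gene, which brings hbl-1 in only when the window is widened to 10000 bp. That summit also lay within 5000 bp of puf-9, a gene of the pathway lists below.

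lin-41 encodes a TRIM-NHL RNA-binding protein, a main target of let-7 whose fall at the end of larval life lets adult fates begin. It lies at chrI:9334800-9342496 on the minus strand. Its stronger peak, chrI:9334518-9334857, was the strongest region of the 10 genes in all 3 ranked lists. The summit lay 112 bp past the annotated gene end, with a pooled signal of 97.5 at rank 535, a signal of 62.6 at rank 504 in replicate 1 and a signal of 36.97 at rank 647 in replicate 2. The replicates differed by a rank ratio of 1.28, and 75.1% of optimal peaks had a wider gap or an equal one. It was also the only optimal peak of the 10 genes with a match to TGATNNAT within 100 bp, with 2 matches at 9 bp before and 26 bp after the summit.

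The other lin-41 peak, chrI:9332773-9333112, lay 1857 bp past the gene end and 1745 bp from the first. Its summit was 3 bp from the annotated start of the microRNA gene cel-mir-79, so it is nearer to that gene than to lin-41. The pooled signal was 52.0 at rank 1401, with a signal of 31.8 at rank 1598 in replicate 1 and of 23.7 at rank 1473 in replicate 2. The rank ratio was 1.08, and 91.3% of optimal peaks had a gap at least as wide. On the upstream side of lin-41 the strongest region was 1416 bp from the start, at pooled rank 3298, with rank 2408 in replicate 1 and rank 6675 in replicate 2. Neither optimal peak of lin-41 thus lay near its promoter, and the window around its starts was empty of optimal summits.

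lin-42, the Period homolog whose levels cycle with the molts, lies at chrII:1233236-1252359 with 5 annotated starts. It had 11 pooled summits, the most of the 10 genes, and none reached the optimal set. The strongest lay 3191 bp upstream with a signal of 26.6 at rank 5828, where replicate 2 had rank 4603 and replicate 1 had no overlapping region. The start of clec-119 was nearer to it, at 387 bp. In replicate 1 the strongest lin-42 region was a different one, in an intron, with a signal of 20.8 at rank 4148.

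lin-46, at chrV:12968855-12970730, encodes a scaffold-like protein that acts against the early factors downstream of lin-28. Its strongest region had the summit 2 bp inside the gene end, in the 3′ UTR, with a pooled signal of 32.9 at rank 3239. Replicate 1 gave it a signal of 32.2 at rank 1558, while replicate 2 had no overlapping region. All 3 pooled regions at lin-46 had an overlap in replicate 1 and none in replicate 2. The strongest lin-46 region of replicate 2 was another, inside an intron, with a signal of 14.5 at rank 4494. The start of pnn-1 lay 382 bp from the pooled summit.

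ain-1 encodes a partner of the Argonautes in the silencing complex. It lies at chrX:16613451-16616871 with a single annotated start. Its peak, chrX:16612365-16612704, had the summit 916 bp upstream of that start, and the next start, of F59C12.3, was 3011 bp away on the other side. The pooled signal was 54.97 at rank 1284, with a signal of 46.96 at rank 831 in replicate 1 and of 14.7 at rank 4356 in replicate 2. The position agreed closely, with summits 1 bp and 0 bp from the pooled one in replicates 1 and 2. The rank did not, since the ratio of 5.24 was reached by 8.04% of optimal peaks, and replicate 2 left the peak outside its strongest regions.

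The neighbouring ain-1 region, chrX:16611384-16611723, lay 981 bp further upstream, 1897 bp from the start. Its pooled signal of 47.98 at rank 1605 was below the lowest optimal signal although its −log10 q was at the maximum of the list. It had a signal of 31.8 at rank 1599 in replicate 1 and of 12.8 at rank 6198 in replicate 2. Both ain-1 regions were therefore ranked higher in replicate 1, as was the upstream peak of lin-28, whereas the inner peak of lin-28 and the intron region of lin-14 were ranked higher in replicate 2.

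ain-2, the paralog of ain-1, at chrI:4653467-4660153, had 9 pooled summits, and the strongest had a signal of 22.9 at rank 8978. The best rank was 3059 in replicate 1 and 6047 in replicate 2, each at a different place upstream of the gene. The Argonaute gene alg-1, at chrX:13949110-13956261, had 6 pooled summits, the strongest with a signal of 22.8 at rank 9000 in a coding exon. That summit lay 19 bp downstream of 1 annotated alg-1 start and 63 bp upstream of another. The best rank of alg-1 was 10913 in replicate 1 and 3050 in replicate 2, the last in the 3′ UTR. The paralog alg-2, at chrII:873212-879885, had 2 pooled summits. Its stronger region lay in an intron 463 bp upstream of the inner start, with a pooled signal of 31.2 at rank 3742, a signal of 13.6 at rank 13454 in replicate 1 and of 18.1 at rank 2577 in replicate 2. None of these 3 genes had a region among the strongest of any list, and the nearest optimal summit lay between 13352 and 205154 bp away.

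**Figure D3:**
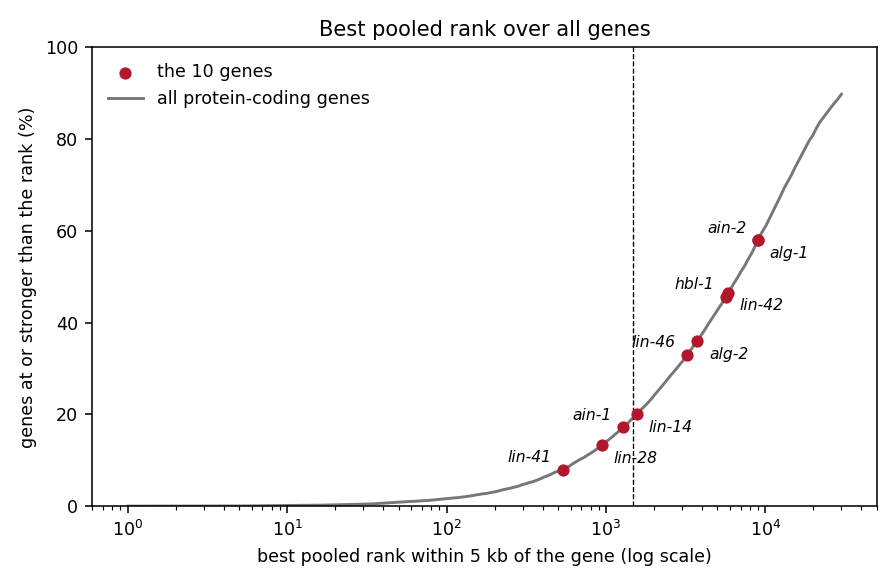
Percent of all protein-coding genes whose best pooled region within 5 kb is at or above a given rank (grey line, log rank axis), with the 10 genes as red points and a dashed line at the size of the optimal set. The points run from 8.0% at lin-41 to 58.0% at alg-1, while the curve itself goes on to 89.8% at rank 30000.

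Set against all genes by best pooled rank, the 10 genes were spread out. lin-41 was matched or passed by 8.0% of genes, lin-28 by 13.3%, ain-1 by 17.2% and lin-14 by 20.1%. lin-46 and alg-2 followed at 33.0% and 36.0%, hbl-1 and lin-42 at 45.6% and 46.5%, and ain-2 and alg-1 at 57.9% and 58.0%. The pooled signals of hbl-1 and lin-42 were 26.96 and 26.6, and those of ain-2 and alg-1 were 22.9 and 22.8. Within each of these pairs the order of the best ranks differed between the replicates, so the neighbours cannot be ordered. Every gene had a ranked region in the pooled list, as had 89.8% of all genes, so the presence of a region says nothing about them. The genes had 69 pooled summits in all, 2 to 11 each with a median of 7, against a median of 3 over all genes. Their windows were longer, with a median of 16680.5 bp against 12027 bp, and per 10 kb the medians were 3.64 against 2.63 summits.

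The 69 pooled summits fell in intergenic sequence in 28 cases, in introns in 26, in coding exons in 8, in 3′ UTRs in 5 and in 5′ UTRs in 2. Of these regions 33 (47.8%) overlapped a region in both replicates by at least 1 bp, against 35.0% of all pooled regions. A replicate region could be matched by more than 1 pooled region, as happened at lin-28, lin-42 and ain-1, so the 33 are not all separate matches. The median pooled rank of the 69 regions was 11323 in the list of 30000, and the share was not compared at like rank. The 2 with no overlap in either replicate were the weaker region of alg-2 and a region past the end of alg-1. Of the 5 optimal peaks, 4 were intergenic and 1, the inner lin-28 peak, was in a 5′ UTR. Among all optimal summits, 74.4% were intergenic and 3.16% were in 5′ UTRs.

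The replicates were next asked separately which genes they would call with lists as long as the optimal set. Replicate 1 had a region among its strongest at 3 of the 10 genes, lin-28, lin-41 and ain-1, against 18.9% of all genes. Replicate 2 likewise had 3 of 10, lin-28, lin-14 and lin-41, against 18.9% of all genes. Only lin-28 and lin-41 were in both, 2 of 10 against 14.5% of all genes. These shares are again near the background. The single change between the replicates was that ain-1 was called in replicate 1 and lin-14 in replicate 2. When the lists were lengthened to 3000 regions each, both replicates shared 3 of the 10 genes, lin-28, lin-14 and lin-41, against 22.3% of all genes.

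**Figure D4:**
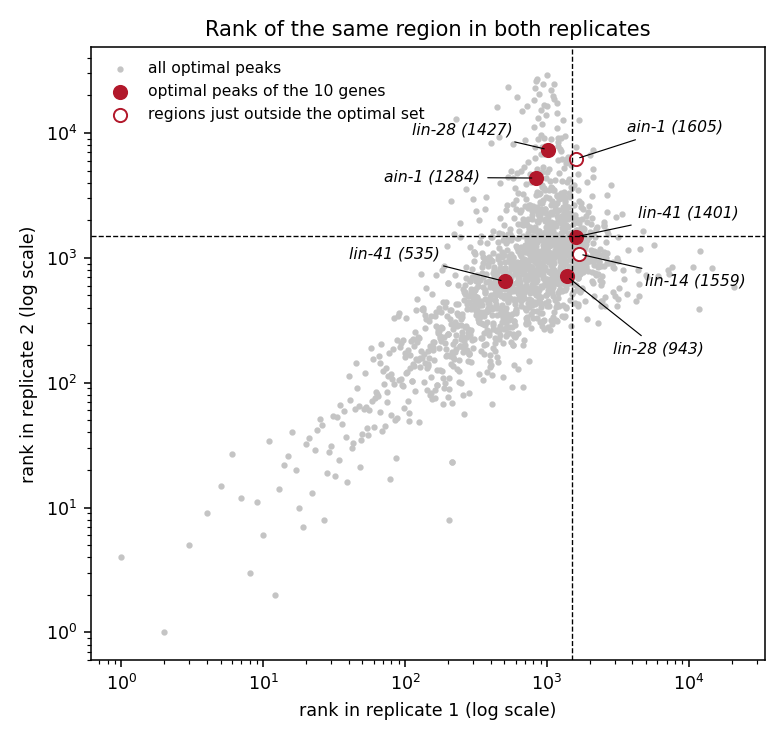
Rank of each optimal peak in replicate 1 (x axis) and replicate 2 (y axis), both log scales, with the peaks of the 10 genes in red, regions just outside the optimal set as open circles, pooled ranks in brackets and dashed lines at the size of the optimal set. The upstream lin-28 peak (1016 and 7346) and the ain-1 peak (831 and 4356) lie above the cloud's centre, while the lin-41 peaks lie close to equal ranks.

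Peak by peak, 1480 optimal peaks, all but 8, were found in both replicates, with a median rank ratio of 1.71 and an upper quartile of 2.51. The lin-41 peaks were inside the median and the inner lin-28 peak inside the upper quartile, while the upstream lin-28 peak and the ain-1 peak were beyond it. Of all optimal peaks 1003 (67.4%) were among the strongest of both replicates, 272 of replicate 1 only and 153 of replicate 2 only. Of the 5 peaks of these genes, 2 were in both, 2 in replicate 1 only and 1 in replicate 2 only. Weak peaks did this more widely, since among the 489 optimal peaks from pooled rank 1000 down, 21.5% were in the strongest of both. The upstream lin-28 peak, the ain-1 peak and the second lin-41 peak are of that group.

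An optimal peak was assigned to the nearest protein-coding gene for which its summit lay at most 2000 bp before or 500 bp after a start. Of the genes so assigned, the 3 nearest to each peak by distance between log10 ranks in the 2 replicates were named. Peaks with no gene start in that window were left out, and some of them were closer. For the upstream lin-28 peak they were ajm-1 (ranks 928 and 7657 in replicates 1 and 2), nefr-1 (957 and 6777) and pola-1 (911 and 6785). For ain-1 they were Y37B11A.3 (814 and 4500), gfi-2 (791 and 4457) and F47D12.9 (774 and 4038). For the inner lin-28 peak they were F21C10.10 (1385 and 727), C05C10.3 (1412 and 721) and ccch-1 (1305 and 731). The measure rests on 2 values per peak, and the genes were picked by those same values, so their similar ranks follow from the choice.

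Sequences at the 5 optimal peaks were compared with all optimal peaks. Within 100 bp of the summit TGATNNAT was present at 1 of the 5, against 17.0% of optimal peaks and 15.0% of all pooled regions. TAATTA was present at 0 of the 5, against 7.80% of optimal peaks and 12.3% of pooled regions. GAGAG was present at 3 of the 5, at ain-1, at the inner lin-28 peak and at the stronger lin-41 peak, against 53.4% of optimal peaks and 22.8% of pooled regions. None of the 3 counts is a whole peak away from what the share over all optimal peaks gives for 5 peaks. The optimal windows also had more GC than the pooled ones, with a median of 40.3% against 31.3%, and the part of base composition in the GAGAG shares was not tested.

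**Figure D5:**
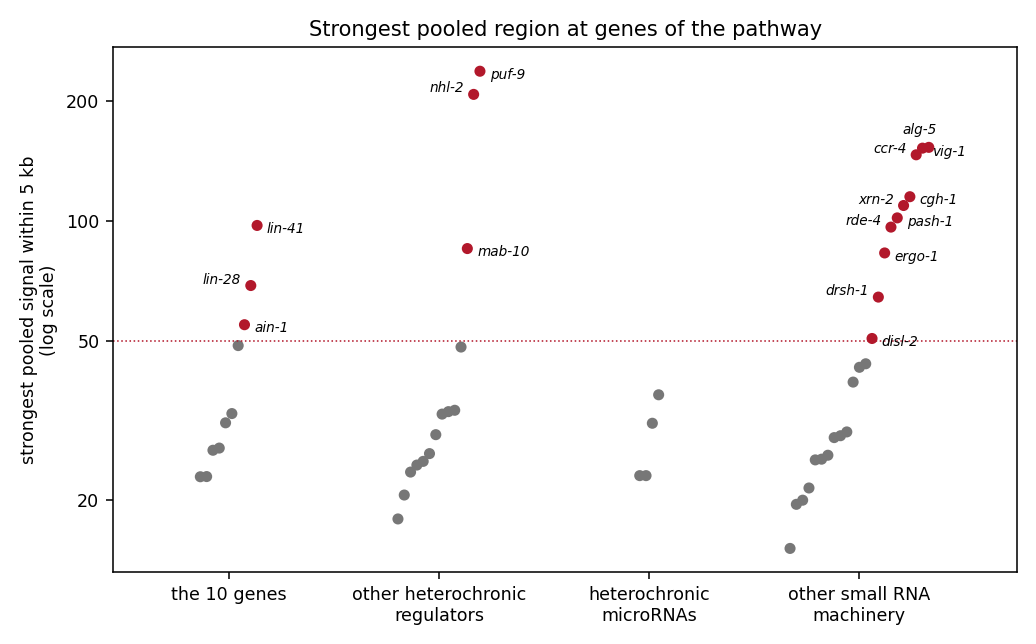
Strongest pooled signal within 5 kb of each of the 10 genes and of the matched genes in 3 lists, on a log axis, sorted within a list; red points have an optimal peak and the dotted line is the lowest optimal signal, 50.03. The highest points are puf-9 at 237.7 and nhl-2 at 207.9, above lin-41 at 97.5.

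The rest of the pathway was described from lists of 44 names, of which 41 were matched by symbol. The names let-7, ntl-1 and pup-1 were not matched. An optimal peak in the gene or within 5000 bp was found at 3 of 14 other heterochronic regulators, 10 of 23 other small RNA genes and 0 of 4 heterochronic microRNA genes. For the protein-coding genes of these lists this makes 13 of 37 (35.1%) against 19.4% of all genes. In the start window the count was 9 of 37, against 8.76% of all genes. These backgrounds are of protein-coding genes, and no share over all microRNA genes is given here. The 0 of 4 microRNA genes therefore has no like background. The lists were written with earlier results of these data known, so these shares are a description.

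Among the heterochronic regulators, puf-9, which encodes a Pumilio-family RNA-binding protein, had the strongest peak of the genes in these lists, 290 bp upstream of its start. It had a pooled signal of 237.7 at rank 71, with rank 85 in replicate 1 and rank 50 in replicate 2. nhl-2, a TRIM-NHL cofactor of microRNA silencing, had a signal of 207.9 at rank 99, 827 bp upstream of its start and 596 bp from that of tag-340. mab-10, a cofactor of the terminal factor LIN-29, had a signal of 85.3 at rank 672. That summit lay past the gene, 7687 bp downstream of the nearest mab-10 start, and the start of R166.2 was nearer, at 438 bp. kin-20, a kinase gene of the timing pathway, came closest of those without an optimal peak, with 48.3 at rank 1585. Of the microRNA genes, mir-84 had the strongest region, 36.7 at rank 2606, lin-4 had 31.1 at rank 3769, and mir-48 and mir-241 shared a region of 22.99 at rank 8843.

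In the machinery that makes microRNAs, pash-1, the partner of Drosha, had a peak 98 bp upstream of its start with a signal of 101.9 at rank 490. drsh-1, Drosha itself, was assigned a peak of 64.5 at rank 1038 that lay 2997 bp from its start and 4 bp from that of cox-5B. The Argonaute alg-5 had 153.1 at rank 218, 809 bp upstream, with the starts of his-67 and his-68 nearer. vig-1, a component of the silencing complex, had 152.4 at rank 221, 407 bp upstream. rde-4, which encodes a double-stranded RNA-binding partner of Dicer, had 96.6 at rank 547, 132 bp upstream of its start and 164 bp from that of cox-14. The Argonaute ergo-1 had 83.2 at rank 710, 4891 bp upstream and nearer to Y50D4C.5.

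Of the genes that act on messages or mature microRNAs, the RNA helicase gene cgh-1 had a peak of 115.1 at rank 394, 801 bp upstream, with the start of C07H6.9 nearer at 705 bp. The deadenylase gene ccr-4 had 146.7 at rank 244, past the gene and 178 bp from the start of wdr-46. The exonuclease gene xrn-2 had 109.4 at rank 430, 1216 bp upstream, with Y48B6A.1 and rpl-43 nearer. disl-2, which encodes a nuclease of the Dis3l2 family known in mammals for degrading let-7 precursors tagged after LIN28 binding, had 50.8 at rank 1452, 136 bp upstream. Closest to the start of their own gene were the peaks of puf-9, pash-1, rde-4, vig-1 and disl-2, from 98 to 407 bp upstream.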

How the data were processed

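LIN-39-eGFP ChIP-seq of whole L1 larvae was analysed from region lists of 2 replicates. Per the submitters' file notes, the lists were made from replicate alignments and a control alignment. The control was not analysed here. By its title the optimal set was thresholded by IDR. The IDR threshold value, the read aligner and the region caller remain unknown. A region's deposited signal is a score by the authors against the control, on a scale they do not state. The deposited −log10 q was read only to show where it saturates, and the deposited summit offset, another number per region, placed the summit.

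Regions were ranked by signal within each list on ce11 and assigned to genes of Ensembl release 115 (WBcel235) by summit. The same region in a replicate was one overlapping by at least 1 bp, the highest-signal one where several overlapped. Signals were not compared across lists. Motifs were sought on both strands of the RefSeq WBcel235 genome. Tools were Python 3.11.15, numpy 2.4.6 and pandas 2.3.3, with figures from matplotlib 3.10.9. No test was run, because there is 1 group and the members and lists were chosen with earlier results of these data known. The scripts' placement of summits was tested on simulated data. Named genes are the 10 genes, every listed pathway gene with an optimal peak, the neighbouring starts, 3 genes most like each lin-28 and ain-1 peak, and lin-39. kin-20, the microRNA genes and cel-mir-79 were named after their values were seen. Windows, overlap rules, shorter and longer lists, leaving out each replicate, and the ce10 lists were tried as alternatives, the last chosen after seeing the data. No coordinate was converted between builds.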

Additional observations from a re-analysis of the deposited data

How the results depend on the processing

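The 3 genes with an optimal peak stayed at 3 with a window of 2000 bp and with any base of the region counted, became 4 with 10000 bp (hbl-1 added), against 29.0% of all genes (5801), and 2 in the start window. With summits in the gene body only, 1 of the 10 genes was left (lin-28), 0 of the pathway genes and 340 of all genes. With only the 744 strongest optimal peaks, 1 was left (lin-41), with 2167 of all genes. Over all genes the count was 2458 with 2000 bp and 1750 in the start window, against 3875. The cause of these drops is the rule itself, which admits fewer summits. The composite motif was found at 2 of the 5 peaks within 200 bp, against 29.7% of optimal peaks. Leaving out a replicate kept 3 of the 10 genes each time, with lin-14 in place of ain-1 without replicate 1, and gave 11 to 13 pathway genes and 3769 to 3775 of all genes. Those values rest on the strongest regions of the remaining replicate. The ce10 regions were matched partly by signal, which also sets rank and the optimal set, so they are no separate check. Under an overlap of at least 50% of each region, or summits within 100 bp, the 2 optimal lin-28 peaks and the ain-1 peak kept their match in both replicates. The 3′ UTR region of lin-28 lost its replicate 2 match under each. No paired analysis was possible because there is 1 group. Depth is unknown, and 2 replicates limit every statement on agreement.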
